A study of Mus musculus with 24 samples.

Results

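A set of 10 genes of acid and base handling in intercalated cells was followed through whole-kidney RNA of transgenic mice. The genes, taken by symbol from the probe annotation, were Atp6v1b1, Atp6v0d2, Atp6v1g3, Atp6v1c2, Slc4a1, Slc26a4, Foxi1, Car2, Rhcg and Rhbg, that is 10 of 18766 named genes and 15 of 45281 probes. The kidneys came from 24 mice of the FVB strain, and each mouse was measured on its own Illumina MouseWG-6 v2.0 array. TgUmodC147W mice were set against TgUmodwt mice in 3 settings, namely in males at 1 month of age (M1), in females at 1 month (F1) and in females at 2 months (F2), and each of the 6 groups held 4 mice. Every mouse carried an HA-tagged uromodulin transgene under a fragment of the mouse Umod promoter, which is active in cells of the thick ascending limb (TAL) and not in intercalated cells. The comparison therefore sets uromodulin with the C147W change against wild type uromodulin, and mice without a transgene were not analysed here.

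Intercalated cells sit among the principal cells of the connecting tubule and collecting duct. Type A cells secrete protons into the urine through an apical vacuolar proton pump (V-ATPase) and return bicarbonate to the blood through the anion exchanger AE1, the product of Slc4a1. Type B cells run the other way and secrete bicarbonate in exchange for chloride through pendrin, the product of Slc26a4. Cytosolic carbonic anhydrase, the product of Car2, supplies protons and bicarbonate to both, Rhbg and Rhcg encode ammonia transporters of the basolateral and apical side, and the forkhead factor FOXI1 is required for the identity of these cells. Loss of ATP6V1B1, SLC4A1 or FOXI1 in humans is known to cause distal renal tubular acidosis.

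Upstream sequence is shown for 3 genes that passed the test in a comparison below, Atp6v1b1, Slc26a4 and Foxi1, because FOXI1 is known to act on promoters of V-ATPase and anion exchanger genes. Each run holds the 250 bases before the annotated start, 5′ to 3′ in the direction of transcription, from RefSeq on GRCm38.p6, and capitals mark the forkhead core TAAACA or CAAACA on either strand.
Atp6v1b1, chr6:83742767-83743016, plus strand: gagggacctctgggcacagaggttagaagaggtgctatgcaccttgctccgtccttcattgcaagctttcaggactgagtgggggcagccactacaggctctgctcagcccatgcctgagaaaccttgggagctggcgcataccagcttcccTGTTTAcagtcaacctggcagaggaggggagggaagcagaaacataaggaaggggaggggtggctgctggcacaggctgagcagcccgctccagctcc
Slc26a4, chr12:31559985-31560234, minus strand: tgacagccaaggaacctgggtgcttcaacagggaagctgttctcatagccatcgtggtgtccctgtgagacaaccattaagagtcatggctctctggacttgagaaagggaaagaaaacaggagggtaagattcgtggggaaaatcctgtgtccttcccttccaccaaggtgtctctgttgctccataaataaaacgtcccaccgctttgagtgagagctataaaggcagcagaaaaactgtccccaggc
Foxi1, chr11:34208090-34208339, minus strand: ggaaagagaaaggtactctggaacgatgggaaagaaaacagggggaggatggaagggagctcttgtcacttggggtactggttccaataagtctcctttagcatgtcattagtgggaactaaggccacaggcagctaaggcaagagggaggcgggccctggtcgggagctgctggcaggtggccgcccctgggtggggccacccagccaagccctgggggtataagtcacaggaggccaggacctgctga
The window of Atp6v1b1 held 1 match, TAAACA on the minus strand, which begins 98 bases before the start, and those of Slc26a4 and Foxi1 held none. Of the 6 genes with a window, Atp6v1g3 was the other one with a match, CAAACA on the plus strand, and 25.3% of all 32851 windows of this length held at least 1. The matches are letters in a window and were not tested for binding.

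Signals are given on the log2 scale after background correction with the detection p-values and quantile normalisation. A probe counts as detected on an array at a detection p under 0.01, and a gene is represented by its brightest expressed probe. Of the 10 genes, 9 were detected on at least 1 array. Slc26a4, Slc4a1, Foxi1, Car2, Rhcg, Rhbg, Atp6v1b1 and Atp6v1c2 were detected on all 24 arrays by their brightest probe. Atp6v1g3, which encodes a pump subunit largely restricted to the kidney, was detected on 12 of 24 arrays, with log2 signals of 6.08 to 7.24. Atp6v0d2, the d2 subunit of the membrane sector, was detected on 0 of 24 arrays and lay between 4.75 and 5.07, so that no comparison was made for it. Atp6v0a4, which encodes the a4 subunit of the intercalated cell pump and was not among the 10 genes, was likewise detected on 0 arrays. Over the 24 arrays Car2 lay at 12.14 to 12.64, Rhcg at 8.99 to 9.65 and Rhbg at 8.51 to 9.41, and none of these genes passed the test in any comparison. In whole-kidney RNA, fewer cells of a type and less RNA per cell cannot be told apart.

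Between 35.3 and 39.6% of the probes were detected on an array. In males the share was 38.4 to 39.6% on TgUmodC147W arrays and 35.3 to 36.4% on TgUmodwt arrays. Detection counts of single genes in males are to be read beside this difference. Arrays of 1 group correlated with r of 0.986 to 0.996 over genes, and arrays of different groups with r of up to 0.992. Of all pairs of arrays, 0 held identical values. The array labelled TgUmodC147W F1 replicate 2 stood against its label, since its 4 Xist probes gave intensities of 84.0 to 108, against 516 to 8708 on the other 15 female arrays. Its Kdm5d probe, for a Y-linked gene, gave 87.8, against 162 to 270 on the 8 male arrays. It was kept, and counts and calls of F1 and of the comparisons with F1 were also computed without it, for lists and all genes by a choice made after the data were seen.

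**Figure D1:**
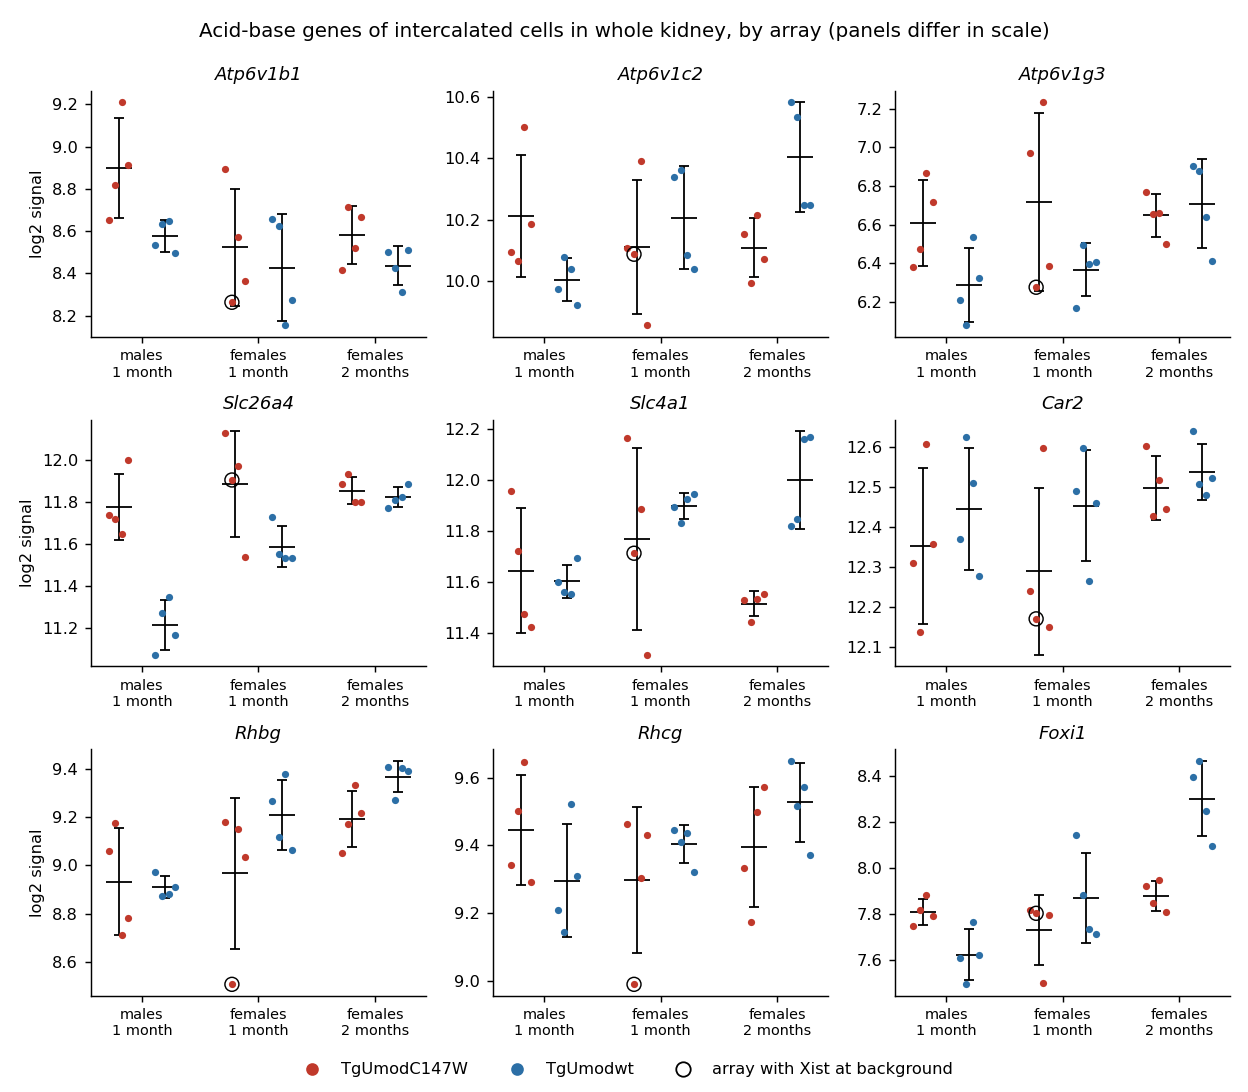
Log2 signals of the 9 expressed genes, 1 panel per gene, for each group on the horizontal axis, with TgUmodC147W mice in red and TgUmodwt mice in blue. Points are single arrays and bars the mean ± SD of 4 mice, and a circle marks the array with Xist at background. Slc26a4 lay higher in every TgUmodC147W male (11.65 to 12.00) than in any TgUmodwt male (11.07 to 11.35), and Foxi1 and Slc4a1 lay lower in every TgUmodC147W female of 2 months than in any TgUmodwt female of that age.

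In males of 1 month, Slc26a4 rose in TgUmodC147W kidneys, as did Atp6v1b1 by its brighter probe but not by its dimmer one. Slc26a4, the apical exchanger of type B cells, measured 11.74, 11.72, 11.65 and 12.00 in TgUmodC147W males, against 11.07, 11.27, 11.35 and 11.17 in TgUmodwt males. The groups did not overlap. The log2 change was 0.56 with a 95% interval of 0.34 to 0.78, a fold of 1.48 (limma, adjusted p = 0.00134). Without any 1 of the 8 arrays it lay between 0.49 and 0.61, with adjusted p-values of 0.00144 to 0.00595.

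Atp6v1b1, the B1 subunit of the catalytic sector that intercalated cells use, measured 8.65, 8.82, 9.21 and 8.91 in TgUmodC147W males, against 8.53, 8.64, 8.65 and 8.49 in TgUmodwt males. The lowest TgUmodC147W array and the highest TgUmodwt array were both at 8.65 after rounding and did not overlap. The log2 change was 0.32 with a 95% interval of 0.07 to 0.57 (limma, adjusted p = 0.0474). A dimmer probe of the same gene went the other way, with 6.72, 6.50, 6.48 and 6.62 in TgUmodC147W males, against 6.99, 6.86, 6.96 and 6.76 in TgUmodwt males. Its log2 change was -0.31 with a 95% interval of -0.51 to -0.12 (limma, adjusted p = 0.0182), and the mean of both probes changed by 0.0042 (adjusted p = 0.971), so that the direction of Atp6v1b1 depends on the probe. The call of the brighter probe was also lost without TgUmodwt M1 replicates 1, 2, 3 or 4 (limma, adjusted p = 0.106, 0.0745, 0.0685 and 0.115) and without TgUmodC147W M1 replicates 2, 3 or 4 (adjusted p = 0.0564, 0.0805 and 0.0800).

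The other genes did not pass the test in males. Atp6v1g3 was detected on 4 of 4 TgUmodC147W and 0 of 4 TgUmodwt arrays, with 6.38, 6.47, 6.87 and 6.72 in TgUmodC147W males, against 6.21, 6.08, 6.53 and 6.32 in TgUmodwt males. The groups overlapped and the TgUmodwt values lie below detection, so that no fold is given (limma, adjusted p = 0.0706). It passed without TgUmodwt M1 replicate 3 (adjusted p = 0.0377) or without TgUmodC147W M1 replicate 1 (adjusted p = 0.0408). Foxi1 averaged 7.81 ± 0.06 in TgUmodC147W males and 7.62 ± 0.11 in TgUmodwt males (SD, n = 4 each), a log2 change of 0.19 with an interval of 0.01 to 0.37 (limma, adjusted p = 0.0977). The mean of its probes passed, with a change of 0.25 (adjusted p = 0.0379). Its second probe, detected on 2 of 4 TgUmodC147W and 0 of 4 TgUmodwt arrays, averaged 6.41 in TgUmodC147W males and 6.01 in TgUmodwt males (adjusted p = 0.0421), and no fold is given since both lie near the limit of detection. Atp6v1c2, the C2 subunit of the pump, changed by 0.21 (-0.02 to 0.44), Rhcg by 0.15 (-0.09 to 0.39), Slc4a1 by 0.04 (-0.21 to 0.30), Rhbg by 0.02 (-0.22 to 0.26) and Car2 by -0.09 (-0.34 to 0.16) on the log2 scale.

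Of the 9 expressed genes, 2 were higher and 0 were lower in TgUmodC147W males, and their median log2 change was 0.19. Among all 10134 expressed genes, 21.9% were higher and 15.5% lower, with a median log2 change of 0.04. The share of higher genes among the 9 is thus near that of all genes. Of 16 expressed genes on a list of other intercalated cell genes, 7 were higher and 2 lower, with a median log2 change of 0.28. Those with the largest changes were Avpr1a, a vasopressin receptor, at 0.79 (limma, adjusted p = 0.0023), Cftr, a chloride channel, at -0.64 (adjusted p = 0.00108) and Bsnd, the barttin subunit of basolateral chloride channels, at 0.60 (adjusted p = 0.000339). Slc4a9, the basolateral exchanger AE4 of type B cells, was named after its values were seen, and was higher by 0.53 (limma, adjusted p = 0.0128).

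Markers of several other cell types were also higher in TgUmodC147W males. Of 10 fibroblast and matrix markers, 10 were higher (median log2 change 1.03), of 14 macrophage and osteoclast markers 9 were higher and 1 lower (median 0.69), of 7 endothelial markers 5 were higher and 0 lower, and of 5 distal convoluted tubule markers 4 were higher and 0 lower. Of 13 expressed principal cell markers, 6 were higher and 0 lower, with a summed linear level of 33588 to 41151 in TgUmodC147W males, against 27734 to 31299 in TgUmodwt males. Scnn1g and Scnn1b, subunits of the epithelial sodium channel, and Aqp2, the water channel of principal cells, had log2 changes of 0.64, 0.55 and 0.64. Of 10 TAL markers, 8 were higher and 0 lower, with a summed level of 159155 to 174119 in TgUmodC147W males, against 128896 to 136856 in TgUmodwt males. Umod was among these markers, and since the transgene carries its coding sequence, its signal may hold transgene RNA. Kcnj1 stood on both the TAL and the principal cell list. Of 12 proximal tubule markers, 0 were higher and 4 lower. The part of these shifts in the changes of Slc26a4 and Atp6v1b1 was not tested.

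**Figure D2:**
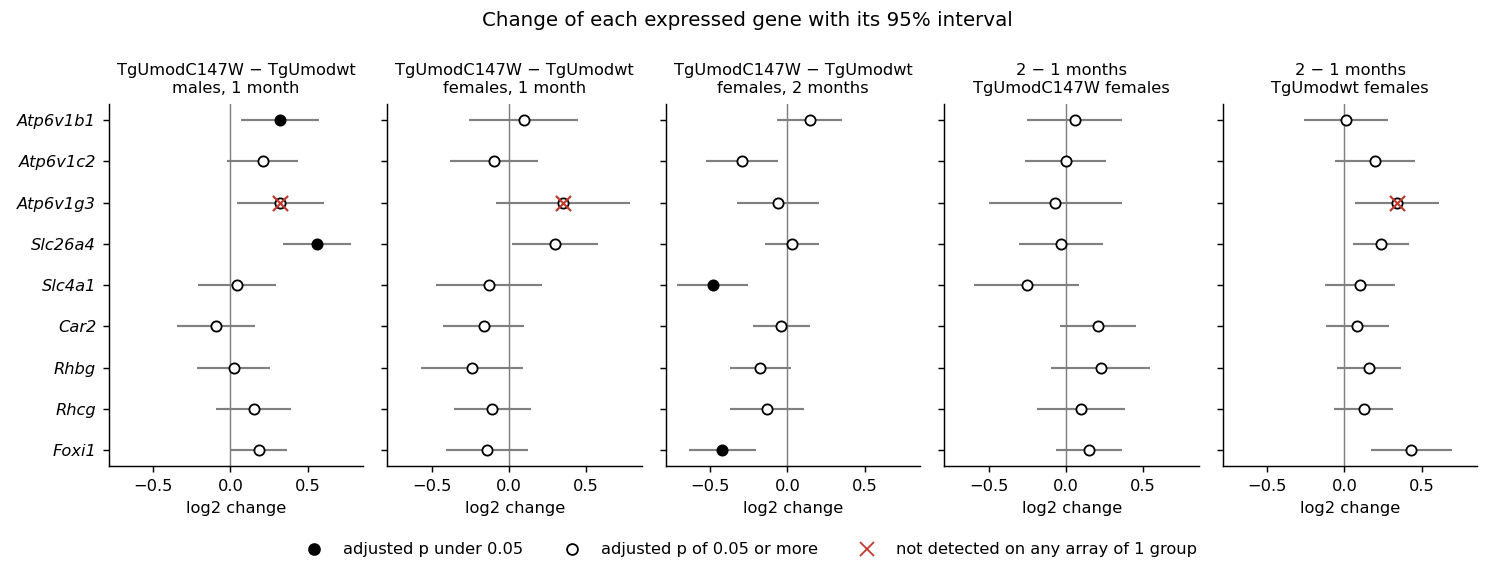
Log2 change (horizontal axis) of each of the 9 expressed genes with its 95% interval in 5 comparisons, TgUmodC147W minus TgUmodwt in the first 3 panels and 2 months minus 1 month in the other panels. Filled points passed limma's test at an adjusted p under 0.05, namely Slc26a4 (0.56) and Atp6v1b1 (0.32) in males and Slc4a1 (-0.48) and Foxi1 (-0.42) in females of 2 months, and red crosses mark Atp6v1g3 where 1 group lay below detection on all its arrays.

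In females of 1 month, none of the 9 expressed genes passed the test (limma, 0 at an adjusted p under 0.05, and 1 at an unadjusted p under 0.05). Among all 9973 expressed genes, 10.4% were higher and 7.62% lower, and without the array with Xist at background 7.06% and 4.86% of 9923. With all 8 arrays, the gene with the smallest p was again Slc26a4. It measured 12.13, 11.90, 11.97 and 11.54 in TgUmodC147W females, against 11.73, 11.55, 11.53 and 11.54 in TgUmodwt females. Of the TgUmodC147W arrays, 3 lay above every TgUmodwt array and replicate 4 lay within their range. The log2 change was 0.30 with an interval of 0.02 to 0.57 (limma, adjusted p = 0.138). It was 0.41 without TgUmodC147W F1 replicate 4 (adjusted p = 0.0202), and 0.29 without the array with Xist at background (adjusted p = 0.238).

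Atp6v1g3 was detected on 2 of 4 TgUmodC147W and 0 of 4 TgUmodwt arrays of F1, and measured 6.97, 6.28, 7.24 and 6.39 in TgUmodC147W females, against 6.17, 6.49, 6.40 and 6.41 in TgUmodwt females. The groups overlapped, and no fold is given, since arrays of both groups lie below detection (limma, adjusted p = 0.267). Without the array with Xist at background its adjusted p was 0.120, below that of Slc26a4 (0.238). The brighter Atp6v1b1 probe changed by 0.10 (-0.26 to 0.45) and the dimmer one by -0.46 (-0.76 to -0.15, limma, adjusted p = 0.049), so that the probes again differed in direction. Without the array with Xist at background they changed by 0.18 and -0.40, and the dimmer probe did not pass (adjusted p = 0.128).

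The remaining genes had log2 changes between -0.24 for Rhbg (-0.57 to 0.09) and -0.10 for Atp6v1c2 (-0.38 to 0.19). Of the F1 arrays, Rhbg and Rhcg were lowest on the one with Xist at background, at 8.51 and 8.99. Without it, Rhbg changed by -0.09 and Rhcg by -0.0037, and the count of genes past the test stayed at 0. Foxi1 measured 7.82, 7.80, 7.50 and 7.79 in TgUmodC147W females, against 8.14, 7.88, 7.73 and 7.71 in TgUmodwt females, a change of -0.14 (-0.40 to 0.12). Slc4a1 measured 12.16, 11.71, 11.89 and 11.32 in TgUmodC147W females, against 11.90, 11.83, 11.92 and 11.94 in TgUmodwt females, a change of -0.13 (-0.47 to 0.21). The TgUmodC147W values of both genes overlapped with those of TgUmodwt, and those of Slc4a1 spread more widely.

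**Figure D3:**
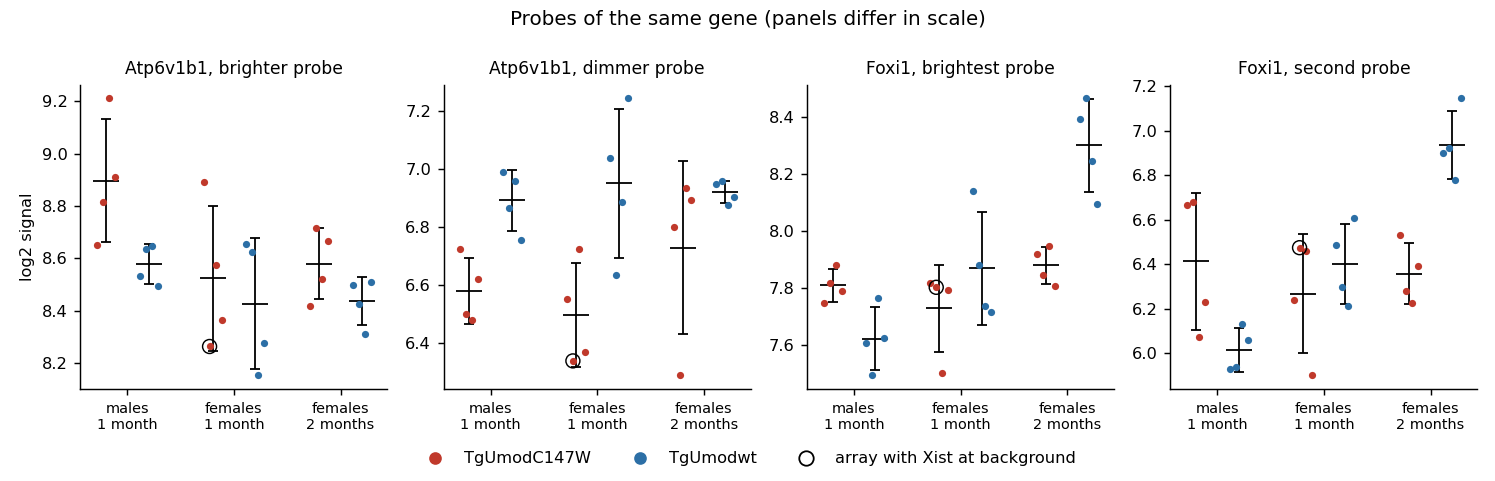
Log2 signals of the Atp6v1b1 and Foxi1 probes that were detected on more than 2 arrays, by group, with TgUmodC147W mice in red and TgUmodwt mice in blue, single arrays as points and bars at the mean ± SD of 4 mice. The Atp6v1b1 probes moved in opposite directions in males (0.32 and -0.31), while both Foxi1 probes were lower in every TgUmodC147W female of 2 months than in any TgUmodwt female of that age.

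In females of 2 months, Foxi1 and Slc4a1 fell in TgUmodC147W kidneys. Foxi1 measured 7.92, 7.84, 7.95 and 7.81 in TgUmodC147W females, against 8.39, 8.47, 8.25 and 8.10 in TgUmodwt females, without overlap. The log2 change was -0.42 with an interval of -0.64 to -0.20, that is 1.34-fold lower (limma, adjusted p = 0.0255). A second Foxi1 probe was detected on 0 of 4 TgUmodC147W and 4 of 4 TgUmodwt arrays. It measured 6.53, 6.28, 6.22 and 6.39 in TgUmodC147W females, against 6.90, 6.92, 6.78 and 7.15 in TgUmodwt females, at least 1.34-fold lower in TgUmodC147W (limma, adjusted p = 0.00783). The third probe, detected on 2 of 24 arrays, averaged 5.98 in TgUmodC147W females and 6.36 in TgUmodwt females (adjusted p = 0.180).

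The call of the brightest Foxi1 probe was lost in 6 of 8 fits that left out 1 array. The adjusted p was 0.0571, 0.0879 and 0.0548 without TgUmodwt F2 replicates 1, 2 and 3, and 0.0505, 0.0555 and 0.0745 without TgUmodC147W F2 replicates 1, 3 and 4. The log2 change lay between -0.49 and -0.37 over all 8 fits. TgUmodwt females of 2 months had the highest mean of the 6 groups, 8.30, and did not overlap with the next group, TgUmodC147W females of 2 months at 7.88. The other groups followed at 7.87 in TgUmodwt F1, 7.81 in TgUmodC147W M1, 7.73 in TgUmodC147W F1 and 7.62 in TgUmodwt M1, and each overlapped with its neighbour.

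Slc4a1, the basolateral exchanger of type A cells, measured 11.53, 11.44, 11.53 and 11.56 in TgUmodC147W females of 2 months, against 11.82, 11.85, 12.16 and 12.17 in TgUmodwt females. The groups did not overlap, and the TgUmodC147W arrays lay within a narrow range. The log2 change was -0.48 with an interval of -0.71 to -0.25, that is 1.40-fold lower (limma, adjusted p = 0.0173). It was -0.43 without TgUmodwt F2 replicate 3 (adjusted p = 0.0565), and passed without each of the other 7 arrays. Over the 6 groups the means ran through 12.00 in TgUmodwt F2, 11.90 in TgUmodwt F1, 11.77 in TgUmodC147W F1, 11.65 in TgUmodC147W M1, 11.60 in TgUmodwt M1 and 11.52 in TgUmodC147W F2, with overlap between all neighbours.

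AE1 is also the main anion exchanger of red cells, whose RNA is present in whole kidney. Of 5 expressed erythroid markers, 3 fell in the same comparison and 0 rose, with a median log2 change of -1.21. Alas2, the enzyme that starts heme synthesis in red cell precursors, measured 7.58, 7.47, 8.75 and 8.99 in TgUmodC147W females of 2 months, against 10.67, 9.80, 10.68 and 10.00 in TgUmodwt females (log2 change -2.09, limma, adjusted p = 0.00485). The globin genes Hbb-b2 and Hba-a1 had log2 changes of -1.42 and -1.21, and Hba-a1 lay at 15.86 to 15.98 in TgUmodwt females, close to the highest value of an array, 16.02.

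The summed erythroid level was 19330 to 45108 in TgUmodC147W females of 2 months, against 62382 to 69343 in TgUmodwt females, and Hba-a1 alone made up 92.7 to 95.9% of it over the 24 arrays. Within the TgUmodC147W females, Alas2 spread from 7.47 to 8.99 and Slc4a1 from 11.44 to 11.56. In males, Hbb-b2 and Hba-a1 rose by 0.70 and 0.32 in TgUmodC147W mice (limma, adjusted p = 0.0413 and 0.0286) and Klf1, an erythroid factor, fell by 0.59 (adjusted p = 0.0024), while Slc4a1 differed by 0.04 (adjusted p = 0.805). Other erythroid genes, among them Epb42, Rhag, Kel and Ank1, were detected on 0 of 24 arrays. The part of red cell RNA in the lower Slc4a1 signal was not tested.

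**Figure D4:**
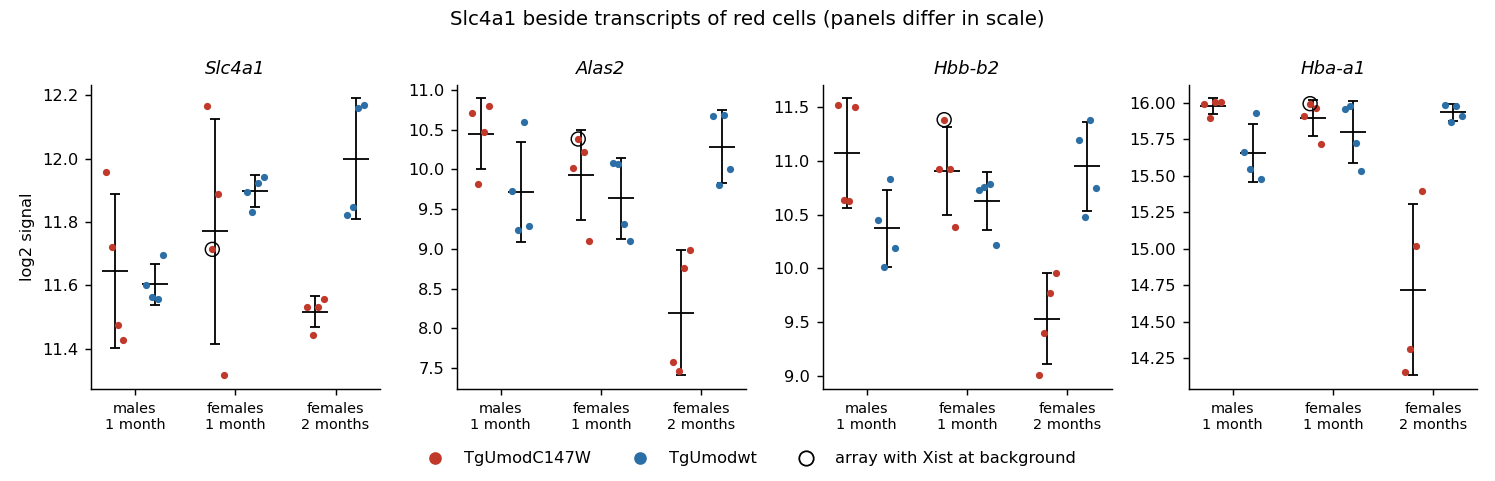
Log2 signals of Slc4a1 and of the red cell transcripts Alas2, Hbb-b2 and Hba-a1 by group, with TgUmodC147W mice in red and TgUmodwt mice in blue, single arrays as points and bars at the mean ± SD of 4 mice. All 4 genes had their lowest mean in TgUmodC147W females of 2 months, where Alas2 spread from 7.47 to 8.99 and Slc4a1 from 11.44 to 11.56.

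The share of genes past the test in females of 2 months was 0 of 9 higher and 2 of 9 lower, with a median log2 change of -0.13. Among all 9856 expressed genes, 5.39% were higher and 3.07% lower, with a median of -0.01. Atp6v1c2 measured 10.15, 9.99, 10.21 and 10.07 in TgUmodC147W females, against 10.58, 10.53, 10.25 and 10.25 in TgUmodwt females. The groups did not overlap, but the change of -0.30 (-0.53 to -0.06) did not pass (limma, adjusted p = 0.128). Slc26a4, the gene with the largest change in males, measured 11.85 ± 0.06 in TgUmodC147W females and 11.82 ± 0.05 in TgUmodwt females of 2 months (SD, n = 4 each), a difference of 0.03 with an interval of -0.14 to 0.21. The remaining genes had changes of -0.17 for Rhbg (-0.37 to 0.02), -0.13 for Rhcg (-0.37 to 0.11), -0.06 for Atp6v1g3 (-0.33 to 0.21), -0.04 for Car2 (-0.22 to 0.14) and 0.14 for Atp6v1b1 (-0.07 to 0.35), whose dimmer probe changed by -0.19 (-0.49 to 0.10).

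Other intercalated cell genes in females of 2 months were higher for 1 and lower for 3 of 15 expressed genes, with a median log2 change of -0.13. Syn2, a synapsin gene listed for these cells, had a change of -0.49 (limma, adjusted p = 0.00891), Avpr1a of -0.48 (adjusted p = 0.0131) and Cftr of -0.42 (adjusted p = 0.0254). In females of 1 month 2 of 16 were higher and 0 lower, namely Rcan2, a calcineurin regulator, by 0.48 (adjusted p = 0.0277) and Bsnd by 0.40 (adjusted p = 0.0496). Neither passed without the array with Xist at background, with Rcan2 at 0.36 (adjusted p = 0.0529) and Bsnd at 0.37 (adjusted p = 0.124). Principal cell markers in females of 2 months were higher for 0 and lower for 1 of 13 genes, with a summed level of 30646 to 35190 in TgUmodC147W females, against 31183 to 34299 in TgUmodwt females.

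Most of the other V-ATPase subunits are made in many cell types. Their median log2 changes were 0.06 in M1, 0.07 in F1 and 0.09 in F2, against 0.04, 0.01 and -0.01 for all genes. Of 17 expressed subunit and accessory genes, 1 was higher and 2 lower in TgUmodC147W males, 1 was higher and 0 lower in females of 1 month, and 1 was higher and 0 lower in females of 2 months. The higher gene in females was Tcirg1, the a3 subunit known from osteoclasts and macrophages, with changes of 0.67 at 1 month (limma, adjusted p = 0.000942) and 0.46 at 2 months (adjusted p = 0.0154). Of the macrophage and osteoclast markers, 10 of 14 were higher and 1 lower at 1 month, and 10 of 13 were higher and 0 lower at 2 months. Without the array with Xist at background, Tcirg1 changed by 0.67 at 1 month (adjusted p = 0.00377), and 8 of 13 of these markers were higher and 0 lower. Fibroblast and matrix markers in females of 2 months were higher for 8 of 9 and lower for 0. Summed, the macrophage and osteoclast markers lay at 17473 to 19461 in TgUmodC147W females of that age, against 5088 to 6252 in TgUmodwt females. The part of the cells with these markers in the Tcirg1 signal was not tested. Atp6v0e2 and Atp6v0a2 were lower in males by -0.42 and -0.27 on the log2 scale, and Atp6v0e was higher by 0.26. Tcirg1 did not pass in males, though it lay at 8.58 to 9.15 in TgUmodC147W and 8.25 to 8.56 in TgUmodwt males, without overlap.

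**Figure D5:**
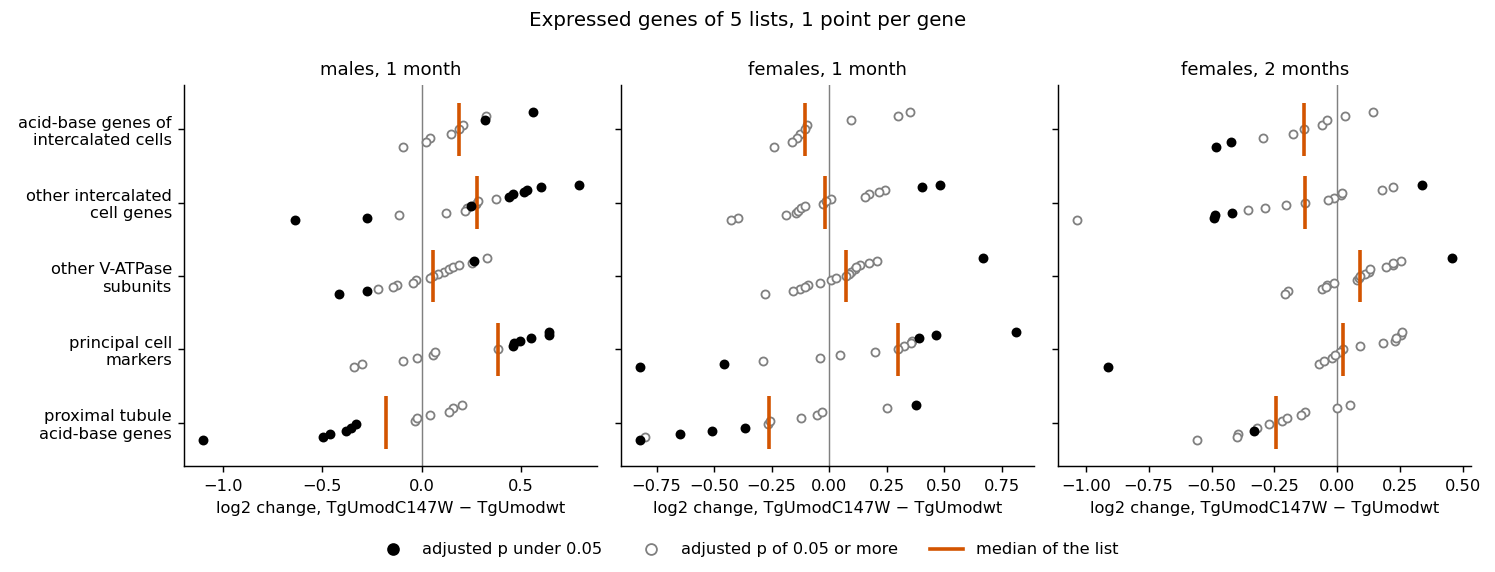
Log2 change, TgUmodC147W minus TgUmodwt, of every expressed gene in 5 lists (vertical axis) in M1, F1 and F2. Each point is 1 gene, filled points passed limma's test and orange bars are list medians, which for the 9 acid-base genes of intercalated cells were 0.19, -0.11 and -0.13.

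Between 1 and 2 months of age, none of the 9 genes passed the test in either genotype. In TgUmodwt females all 9 had a higher mean at 2 months by their brightest probe, with a median log2 change of 0.16. By limma, 0 passed at an adjusted p under 0.05, and 3 at an unadjusted p under 0.05. The change of Atp6v1b1 was 0.0091 (-0.26 to 0.28), with -0.030 by its dimmer probe and -0.011 with its probes averaged. Among all 9756 expressed genes, 1.63% were higher and 1.83% lower past the test, with a median log2 change of -0.0042. The share of all genes with a higher mean was not counted. Age went with a difference between whole arrays. Before normalisation, median intensities were 139.7 to 176.6 on TgUmodwt arrays of 2 months, against 114.6 to 130.8 on those of 1 month. On TgUmodC147W arrays they were 139.7 to 156.6, against 122.8 to 127.9 in females of 1 month. The part of these array differences in the changes with age, and in the interaction of genotype with age, was not tested. Foxi1 measured 8.39, 8.47, 8.25 and 8.10 in TgUmodwt females of 2 months, against 8.14, 7.88, 7.73 and 7.71 in TgUmodwt females of 1 month. The highest array of 1 month overlapped with the lowest of 2 months. The log2 change was 0.43 with an interval of 0.17 to 0.69 (limma, adjusted p = 0.0846). Same-numbered arrays of these 8 correlated in their deviations from group means (0.20, 0.12, 0.25 and 0.36). For replicates 1 and 2 an array of another number correlated better (0.37 and 0.14), and the labels do not pair the mice. With the replicate number as a block, the adjusted p was 0.0356 for the same change (limma). The second Foxi1 probe, detected on 4 of 4 arrays of 2 months and 1 of 4 of 1 month, changed by 0.54 (limma, adjusted p = 0.0306).

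Slc26a4 measured 11.77, 11.81, 11.82 and 11.89 in TgUmodwt females of 2 months, against 11.73, 11.55, 11.53 and 11.54 in those of 1 month. The groups did not overlap, and the change of 0.24 (0.05 to 0.42) did not pass (limma, adjusted p = 0.171). Atp6v1g3 was detected on 2 of 4 TgUmodwt arrays of 2 months and 0 of 4 of 1 month, and changed without a call (limma, adjusted p = 0.188), with no fold given since arrays of both ages lie below detection. In TgUmodwt females 3 of 15 other intercalated cell genes were higher at 2 months and 0 lower, namely Syn2 by 0.60, Atp4a, a proton pump subunit of the stomach and collecting duct, by 0.57 and Rcan2 by 0.53.

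In TgUmodC147W females the changes from 1 to 2 months lay between -0.25 for Slc4a1 (-0.60 to 0.09) and 0.22 for Rhbg (-0.10 to 0.55), with 0 genes past the test at an unadjusted p under 0.05. Among all 10012 expressed genes, 6.19% were higher and 6.98% lower, and without the array with Xist at background 4.15% and 4.39% of 9973. Foxi1 measured 7.92, 7.84, 7.95 and 7.81 in TgUmodC147W females of 2 months, against 7.82, 7.80, 7.50 and 7.79 in those of 1 month, a change of 0.15 (-0.06 to 0.37). Without TgUmodC147W F1 replicate 4, Slc4a1 changed by -0.41 (limma, adjusted p = 0.0499), and without the array with Xist at background by -0.27 (adjusted p = 0.389). The erythroid genes Alas2, Hbb-b2 and Hba-a1 had changes of -1.73, -1.37 and -1.18 in this comparison. The age comparisons share their arrays of 2 months and of 1 month with the genotype comparisons above.

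The differences between these effects were tested directly. For the interaction of genotype with age, that is the genotype change at 2 months minus that at 1 month in females, 0 of 9 genes passed (limma, 0 also at an unadjusted p under 0.05). Among all 10148 expressed genes, 0.808% were positive and 0.493% negative past the test, and without the array with Xist at background 0.484% and 0.237% of 10116. Without it, 1 of the 9 genes had an unadjusted p under 0.05, namely Atp6v1g3, whose signals lie near background (limma, adjusted p = 0.342). Slc4a1 had a difference of -0.35 (-0.76 to 0.05, adjusted p = 0.480), Foxi1 of -0.28 (-0.61 to 0.04, adjusted p = 0.487) and Slc26a4 of -0.27 (-0.57 to 0.04, adjusted p = 0.483). The lower Foxi1 and Slc4a1 signals at 2 months were therefore not shown to differ from the genotype effects at 1 month.

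For the interaction of genotype with sex, that is the genotype change in males minus that in females of 1 month, 0 of 9 genes passed (limma, 1 at an unadjusted p under 0.05). Among all 10275 expressed genes, 3.95% were positive and 3.76% negative past the test, and without that array 3.73% and 3.51% of 10258. Foxi1 had a difference of 0.33 (0.02 to 0.63, adjusted p = 0.190), Slc26a4 of 0.26 (-0.08 to 0.61, adjusted p = 0.364) and Atp6v1b1 of 0.22 (-0.21 to 0.66, adjusted p = 0.567). The rise of Slc26a4 in males was not shown to differ from its change in females. Without the array with Xist at background the adjusted p of Foxi1 was 0.185, and the count of genes past the test stayed at 0 for both interactions.

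The genes did not vary as 1 block from mouse to mouse. After the group means were taken out, Pearson's r over the 24 arrays ran from -0.31 between Foxi1 and Slc4a1 to 0.81 between Atp6v1c2 and Car2, with a median of 0.23 over 36 pairs, of which 26 were above 0. Among the pump subunits, Atp6v1c2 gave 0.61 with Atp6v1g3 and 0.54 with Atp6v1b1, and Atp6v1b1 gave 0.42 with Atp6v1g3. The exchangers Slc26a4 and Slc4a1 gave 0.44. These values share arrays and normalisation and are descriptions.

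The mean of the standardised signals of the 9 genes was set against 10369 other genes. Over the 24 arrays the highest correlations were with Pdxk (pyridoxal kinase, 0.82), Tspan1 (a tetraspanin, 0.82), Gm7854 (0.80), Bet1l (a SNARE protein of the Golgi, 0.79) and Nek9 (a kinase of mitosis, 0.79). After the group means were taken out they were with Rgs7 (a regulator of G protein signalling, 0.83), Fads6 (0.80), Uqcrc2 (a subunit of respiratory complex III, 0.77), Trmu (an enzyme of mitochondrial tRNA modification, 0.77) and Slc4a9 (0.76), the last from the list of other intercalated cell genes. No gene was among the first 5 by both measures.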

How the data were processed

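Whole-kidney RNA was labelled with biotin and hybridised to BeadChips by the authors, who read the beads in GenomeStudio. The deposited non-normalized table holds linear probe intensities with no background subtraction, each beside a detection p-value that the authors derived from negative control beads. Intensities that the authors had normalised by cubic spline stand in a second deposited table, which served as an alternative. Probe IDs differed between the tables for 13666 of 45281 probes, which were matched by their ranks over 24 arrays, and a probe was named where both IDs gave the same gene (34043 probes, 18766 genes). All 15 probes of the genes reported here met this.

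The neqc function (limma 3.58.1, R 4.3.3) removed background by way of these p-values, added an offset of 16, applied quantile normalisation and took log2. Linear models were run in limma separately for every comparison, with 8 arrays for a pair of groups and 16 for an interaction. A probe entered if any of those arrays detected it at a p below 0.01. Tests were two-sided, p-values were adjusted by Benjamini-Hochberg over all probes entered, and the threshold was 0.05. The brightest probe that entered stood for its gene. Mice are separate animals, and 4 per group limit the precision of every value. The model fits were tested on simulated log2 values with known changes. Background correction, normalisation, probe matching and the choice of the brightest probe were not part of that test.

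The genes and lists were chosen with earlier results of these data known. All 10 genes are reported, with at most the 3 listed genes of largest change past the test per list and comparison, other genes being marked. Replicate numbers were checked as pairs by the correlation of deviations from group means. They paired the arrays in TgUmodwt females of 2 against 1 month, where same-numbered arrays gave 0.20, 0.12, 0.25 and 0.36, all over 0.1, and in no other comparison. The pairing comes from these correlations and not from the labels, and for replicates 1 and 2 an array of another number correlated better (0.37 and 0.14). Alternatives covered normalisation, background, offset, filter, fit, variance prior, probe summary, probe names, a replicate block and leaving out each array. A bound on a fold takes, for arrays without detection, the lowest signal among the detected probes of that array. Promoter windows came from RefSeq on GRCm38.p6.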

Additional observations from a re-analysis of the deposited data

Results flagged for a closer look

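In 3 of 54 groups of 4 arrays (9 genes in 6 groups) 1 array stood apart from the other 3 by Dixon's test at the 95% level. Chance flags about 1 group in 20. Slc26a4 was at 11.73 in TgUmodwt F1 replicate 1, against 11.53 to 11.55 in the other arrays of that group. Foxi1 was at 7.50 in TgUmodC147W F1 replicate 3, against 7.79 to 7.82. Rhbg was at 9.27 in TgUmodwt F2 replicate 2, against 9.39 to 9.41.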

How the results depend on the processing

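Slc26a4 in males passed the test under all alternatives. Of the values past the test in the main analysis, only that of Atp6v1b1 in males changed sign. When any probe counted, it passed as lower by its dimmer probe (log2 change -0.31, limma, adjusted p = 0.0182). Foxi1 in males then passed by its second probe (adjusted p = 0.0421). In males the count of genes past the test was 4 with arrays scaled to a common median (Foxi1 and Atp6v1g3 added), 2 with the mean of probes (Foxi1 in place of Atp6v1b1), 1 without a filter on dim probes, 1 with 1 fit over 24 arrays, and 1 to 3 with single arrays left out. In females of 1 month it was 1 with 1 fit over 24 arrays (Slc26a4), 1 when any probe counted (Atp6v1b1, lower), and 0 to 1 with single arrays left out. In females of 2 months it was 1 under median scaling (Slc4a1, Foxi1 at an adjusted p of 0.0638) and 0 to 2 with single arrays left out. For 2 against 1 month it was 0 to 1 with single arrays left out in TgUmodC147W. In TgUmodwt it was 2 under median scaling (Foxi1 and Slc26a4), and 1 (Foxi1) with 1 fit over 24 arrays, with the replicate block, with the mean of probes and when any probe counted. In the other comparisons the replicate block left the counts at 3 for males (Atp6v1g3 added), 0 for females of 1 month, 2 for females of 2 months and 0 for TgUmodC147W with age and for both interactions, and the block changed no other call. Replicate numbers did not pair the arrays there.

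Median scaling gave a median change of all genes of 0.15 in TgUmodwt with age (648 higher, 124 lower, against 159 and 179 and a median of -0.0042) and of 0.11, against 0.04, in males (2743 and 1102, against 2221 and 1566). It gave 386 higher and 405 lower genes in females of 2 months, against 531 and 303, 863 and 467 in TgUmodC147W with age, against 620 and 699, 46 and 67 for the interaction with age, against 82 and 50, and 587 and 239 for that with sex, against 406 and 386. With 1 fit over 24 arrays 951 and 1109 genes passed in TgUmodC147W with age, 254 and 268 in TgUmodwt with age and 131 and 89 for the interaction with age. The replicate block gave 409 and 463 in TgUmodC147W with age. For the interaction with age, 38 and 20 passed without a filter, and 88 and 34 with the stricter filter on detection.

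Apart from Atp6v1b1 in males when any probe counted, no value that changed sign had passed the test. With the mean of probes, Atp6v1b1 was at -0.18 in females of 1 month, -0.024 in females of 2 months and -0.011 in TgUmodwt with age. Under median scaling, Slc26a4 was at -0.11 in females of 2 months and 0.090 in TgUmodC147W with age, Atp6v1c2 at 0.093 there, Atp6v1b1 and Rhbg at -0.050 and -0.027 for the interaction with age and Atp6v1g3 at 0.023 for that with sex. With single arrays left out, signs changed in males for Rhbg (-0.059 to 0.095) and Slc4a1 (-0.062 to 0.11), in females of 1 month for Atp6v1b1 (-0.027 to 0.18) and Slc4a1 (-0.26 to 0.024), and in females of 2 months for Atp6v1g3 (-0.16 to 0.0057). They changed in TgUmodC147W with age for Atp6v1c2 (-0.087 to 0.091), Atp6v1g3 (-0.22 to 0.10), Slc26a4 (-0.15 to 0.050), Atp6v1b1 (-0.030 to 0.18) and Rhcg (-0.0044 to 0.17), and in TgUmodwt with age for Atp6v1b1 (-0.082 to 0.086). For the interaction with age they changed for Rhcg (-0.13 to 0.047), Atp6v1b1 (-0.039 to 0.17) and Rhbg (-0.089 to 0.13), and for that with sex for Atp6v1g3 (-0.17 to 0.15) and Car2 (-0.013 to 0.17). The causes were not tested. A block for the BeadChip was not run, because the sources used here do not tie arrays to BeadChips. Signals of Atp6v1g3 and the dimmer Foxi1 probes near background limit what can be read from them.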

Other observations

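The proximal tubule reclaims filtered bicarbonate and makes ammonia. Of 12 expressed proximal tubule acid-base genes, 0 were higher and 6 lower in TgUmodC147W males, with a median log2 change of -0.18, where 15.5% of all genes were lower. The list was broad and also held Slc5a1 and Slc34a1, which carry glucose and phosphate. Slc34a1 was on the list of general proximal tubule markers as well. Pck1, the enzyme of gluconeogenesis that goes with ammonia production, fell by 1.10 (limma, adjusted p = 0.000506), Car14, a membrane carbonic anhydrase, by 0.49 (adjusted p = 0.00429) and Slc25a10, a mitochondrial dicarboxylate carrier, by 0.46 (adjusted p = 0.0101). In females of 1 month 1 was higher and 4 lower, with Car14 at -0.82, Slc4a4, the basolateral sodium bicarbonate cotransporter, at -0.65 and the mitochondrial carbonic anhydrase Car5b at -0.51. Without the array with Xist at background 0 were higher and 3 lower, and Car14, Slc4a4 and Car5b passed at -0.80, -0.65 and -0.46. In females of 2 months 0 were higher and 1 was lower, Slc4a4 at -0.33 (limma, adjusted p = 0.0421). General proximal tubule markers were lower for 4 of 12, 5 of 11 and 2 of 11 genes in these comparisons, and their part in the acid-base genes was not tested.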
